A study of Mus musculus with 22 samples.

Results

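Both-mark regions are places where a block of the repressive histone mark H3K9me3 lay on a block of the active mark H3K27ac. They were chosen by position alone: at least 50% of the length of an H3K9me3 region had to lie in 1 H3K27ac region, on chromosomes 1 to 19 without 8. The rule was met by 4673 of 57337 H3K9me3 regions (8.15%). These lay in 4330 of 125232 H3K27ac regions (3.46%), of which 294 held 2 or more both-mark regions, 637 in all, so that these share 1 value of H3K27ac. Levels are given in normalized reads, the reads of a region divided by 1 factor per library, and never go below the value of 1 read, here called the floor. On either side of the overlap threshold, 170 regions with 50% to 52% of their length inside had medians of 23.5 normalized reads for H3K9me3 and 12.2 for H3K27ac. The 166 regions with 48% to 50%, which were left out, had medians of 36.8 and 15.9 normalized reads.

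The study mapped histone marks by chromatin immunoprecipitation and sequencing (ChIP-seq) in mouse induced pluripotent stem (iPS) cells made from embryonic fibroblasts of the C57BL/6 strain. C2 cells had received the artificial zinc-finger transcription factors ZFATF1, ZFATF2 and ZFATF3 with Sox2, Klf4 and c-Myc (SKM). C3 cells had received ZFATF1, ZFATF2 and ZFATF4 with SKM. OSKM cells had received Oct4 with SKM and are the cells with which C2 and C3 are compared. All 3 kinds of cells share SKM and the 4-hydroxytamoxifen (100 nM) that the labels give, and each mark has 2 libraries per line. A second set of libraries, in which the HA tag of the artificial factors was mapped, holds C2 cells at day 20 and cells given an empty vector with SKM. No day was recorded here for the empty-vector cells. C2 and OSKM share their input libraries while C3 has its own, so an effect of the input goes with C3 and cannot be told apart from it. Factor set and line also go together. Nothing in the labels says that the libraries of a line came from separate cultures or clones, so p-values measure the spread between these libraries, which may be technical.

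H3K27ac is placed on nucleosomes of active promoters and enhancers by the acetyltransferases p300 and CBP. H3K9me3 is written by SETDB1, SUV39H1 and SUV39H2, is read by HP1 proteins, and keeps transposons, satellite repeats and many clustered gene families silent. In pluripotent cells, KRAB zinc-finger proteins bring SETDB1 to endogenous retroviruses and to imprinting control regions, where the methylated parental copy carries H3K9me3 and the other copy carries active marks. ChIP-seq of a cell population cannot tell apart marks on 1 chromosome copy, on both copies, or in different cells.

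Each pair of lines was tested over all regions of a mark with limma on log2(normalized reads + 1), and a region is said to rise or fall, or to be called, where the adjusted p was under 0.05. After removal of duplicates the 12 histone libraries kept 28947967 to 46304808 reads, and the 4 HA libraries 1629753 to 3896935. All 10 pluripotency markers examined, among them Nanog, Sox2 and Esrrb, had an H3K27ac peak in both libraries of C2, C3 and OSKM. Their summed H3K27ac was 19962 and 14648 normalized reads in C2, against 35796 and 35273 in OSKM, and 34413 and 21730 in C3, against 38895 and 38370 in OSKM in the table of that pair. Of 10 fibroblast markers, 1 had a peak in both libraries in C2, 5 in C3 and 2 in OSKM. Over the 8 of these with an H3K27ac region, the summed level was 269 in both C3 libraries and 254 and 323 in OSKM. It was 280 and 158 in C2, against 212 and 309 in OSKM, with Col3a1 and Postn at or near the floor. Of 7 endoderm markers, 5 had a peak in both libraries in C2, 7 in C3 and 5 in OSKM. Their summed level was 6401 and 3678 in C3, against 963 and 1500 in OSKM, and 3203 and 1664 in C2, against 878 and 1378 in OSKM. The part of these levels in the differences below was not tested.

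Promoters with a start site inside a both-mark region number 61, of 59 genes, and include those of several imprinted genes. The following 5 are printed as examples of imprinted genes. Their both-mark regions were called for Zrsr1 and Kcnq1ot1 and not called for Mest, Peg3 and Snrpn (below). The imprinted genes Commd1 and Usp29 also had a start site in such a region and are not printed. Each run holds the 250 bases before the start site (RefSeq, GRCm38.p6), 5′ to 3′ on the gene's strand, with CpG dinucleotides, the sites of DNA methylation, in capitals.
Zrsr1, chr11:22971755-22972004, plus strand: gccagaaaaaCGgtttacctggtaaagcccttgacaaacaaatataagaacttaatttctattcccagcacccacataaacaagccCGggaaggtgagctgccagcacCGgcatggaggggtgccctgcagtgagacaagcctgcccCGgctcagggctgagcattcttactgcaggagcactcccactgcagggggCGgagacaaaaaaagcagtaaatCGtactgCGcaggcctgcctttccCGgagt
Kcnq1ot1, chr7:143296548-143296797, minus strand: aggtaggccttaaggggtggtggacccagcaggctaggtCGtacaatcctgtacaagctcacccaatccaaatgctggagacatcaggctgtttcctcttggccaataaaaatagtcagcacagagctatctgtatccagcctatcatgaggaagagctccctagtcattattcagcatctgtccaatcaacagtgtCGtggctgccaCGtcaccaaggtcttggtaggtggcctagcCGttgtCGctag
Mest, chr6:30737800-30738049, plus strand: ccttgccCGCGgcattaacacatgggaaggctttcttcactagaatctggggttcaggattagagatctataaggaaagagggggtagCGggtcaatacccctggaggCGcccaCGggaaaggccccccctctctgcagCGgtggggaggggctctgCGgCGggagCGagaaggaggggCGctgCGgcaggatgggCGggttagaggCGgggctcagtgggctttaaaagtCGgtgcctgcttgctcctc
Peg3, chr7:6730420-6730669, minus strand: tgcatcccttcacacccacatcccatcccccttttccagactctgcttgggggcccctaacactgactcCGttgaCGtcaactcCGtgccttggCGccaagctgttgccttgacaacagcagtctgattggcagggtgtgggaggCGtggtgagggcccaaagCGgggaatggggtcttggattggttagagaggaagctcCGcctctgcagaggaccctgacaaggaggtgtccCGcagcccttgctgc
Snrpn, chr7:60005200-60005449, minus strand: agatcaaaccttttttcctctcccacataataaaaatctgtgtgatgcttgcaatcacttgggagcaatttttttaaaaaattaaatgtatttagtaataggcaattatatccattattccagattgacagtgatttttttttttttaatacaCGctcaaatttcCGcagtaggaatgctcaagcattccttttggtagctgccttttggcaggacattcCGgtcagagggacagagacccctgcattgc
They hold 8, 5, 14, 8 and 3 CpG in this order. TGCCGC, the letters bound by the KRAB zinc-finger protein ZFP57 at imprinted genes, was searched on both strands of the 250 bases before each start site. It was found in 6 of the 61 promoters (9.84%) and in 8.66% of all 29954 promoters on the same chromosomes. At least 2 matches were found in 2 of the 61 (3.28%), both of them start sites of Mest whose windows overlap, and in 0.871% of all. The 61 had a median GC content of 51.2%, against 52.4% for all, and a median observed-over-expected CpG ratio of 0.341, against 0.379. A ratio above 0.6, typical of CpG islands, was found in 14 (23.0%), against 34.4% of all. Promoters that start in a both-mark region were thus no richer in CpG than the rest.

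Both-mark regions were short and mostly away from promoters. Their median width was 758 bp (211 to 11227 bp), against 1033 bp for the other H3K9me3 regions. The H3K27ac regions around them were wide, at a median of 1336.5 bp, against 1001 bp for the other H3K27ac regions. The median overlap was 92.6% of the H3K9me3 region, and 2038 (43.6%) lay wholly inside. A gene held 1761 of them (37.7%), 1215 in protein-coding genes and 444 in long non-coding RNA genes, and 2278 (48.7%) had no gene within 5000 bp. Among other H3K9me3 regions 31.9% lay in a gene. The H3K27ac regions with a both-mark region lay in a gene in 40.4% of cases, against 63.96% of the other H3K27ac regions. Within 2500 bp of a start site were 7.24% of both-mark regions and 3.599% of other H3K9me3 regions. The same held for 8.95% of the H3K27ac regions around them and 19.3% of other H3K27ac regions. In position the both-mark regions thus lay between the 2 marks. Their share of a chromosome's H3K9me3 regions ran between 6.61% on chromosome 7 and 10.5% on chromosome 11.

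The rule does not require that both marks were called in the same line. Peaks that the authors called in each library were laid over the both-mark regions. Both marks had a peak in both libraries at 668 regions in C2 (14.3%), at 1212 in C3 (25.9%) and at 2147 in OSKM (45.9%). In none of the lines was this so at 2025 regions (43.3%), in at least 1 line at 2648 (56.7%) and in all 3 at 350 (7.49%). C2 alone had 81 of them, C3 alone 373 and OSKM alone 1165. Single libraries bear on these counts: a peak of H3K9me3 lay on 68.7% and 35.7% of both-mark regions in C3 replicates 1 and 2, and a peak of H3K27ac on 71.5% and 37.0% in C2 replicates 1 and 2. Asking for a peak of each mark in at least 1 library gave 2504 regions for C2, 2803 for C3 and 3242 for OSKM, a majority of both-mark regions in each line. From replicate 1 alone the count was 1709 in C2, 2647 in C3 and 2651 in OSKM, and from replicate 2 alone 1145, 1319 and 2685 in this order. C2 had the fewest and OSKM the most in each of these counts, while the distances between the lines moved.

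**Figure D1:**
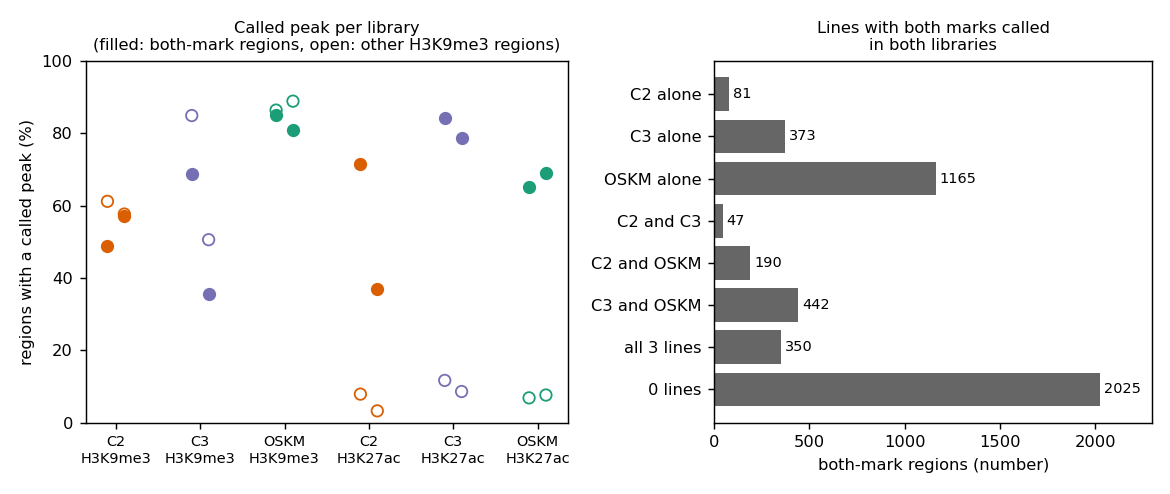
Left, the share of regions (%) with a called peak in each of the 12 histone libraries, as 2 points per line, for the both-mark regions (filled) and the other H3K9me3 regions (open). Right, the number of both-mark regions by the lines in which both marks had a peak in both libraries, from 47 for C2 and C3 to 2025 for 0 lines.

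Changes of called peaks were mostly in 1 direction between C3 and the other lines, and less so between C2 and OSKM. At 85 regions (1.82%), H3K27ac had peaks in both C3 libraries and none in OSKM, while H3K9me3 had peaks in none of the C3 libraries and in both of OSKM, and the reverse was seen at 1. The numbers were 9 and 5 between C2 and OSKM. Between C2 and C3, 11 regions had H3K9me3 in C2 alone and H3K27ac in C3 alone, and 0 the reverse. H3K9me3 peaks were fewer in the C3 libraries (68.7% and 35.7% of both-mark regions) than in OSKM (85.0% and 80.9%). The part of this in these counts was not tested, and other H3K9me3 regions were not counted in this way. Summits were compared where both marks had peaks in both libraries and each of the 4 libraries had a summit inside the H3K9me3 region. This held at 439 of 668 regions in C2, 836 of 1212 in C3 and 1193 of 2147 in OSKM. There the median distance between an H3K9me3 and an H3K27ac summit was 260 to 364 bp over lines and replicates. Summits of H3K9me3 in replicates 1 and 2 were 145 to 280 bp apart, and those of H3K27ac 102 to 173 bp. In each line the peaks of the 2 marks were farther from each other, by these medians, than the replicates of either mark.

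The 350 regions with both marks in all 3 lines had a median width of 1996 bp, against 701 bp for the other both-mark regions, and 130 (37.1%) lay in a gene. The regions strongest in both marks per kb, ranked by the mean over the C3 and OSKM libraries, included 2 in 1 H3K27ac region of chromosome 15. These had no gene within 5000 bp. At the larger (chr15:75086120-75087048) H3K9me3 had 1.15 and 1.39 normalized reads in C2, against 2421 and 1237 in OSKM. In C3 it had 0.862 and 1.52, against 2701 and 1354 in OSKM in that pair's table. H3K9me3 thus stood at the value of 1 read in all C2 and C3 libraries but not in OSKM, at least 480-fold lower in C2 and at least 568-fold lower in C3 (limma, adjusted p = 2.7e-09 and 2.21e-08). These bounds set the floor at 3 reads per library. The region's rank in H3K9me3 came from OSKM alone, and its fall rests on the same values. H3K27ac was 24579 and 11758 in C3, against 13395 and 10663 in OSKM, and was not called. The authors' fold enrichment over the control was low here, at 1.46 and 1.33 for H3K9me3 in OSKM, against medians of 4.41 and 4.38 over both-mark regions in these libraries, and at 1.28 to 1.66 for H3K27ac in the 6 libraries. The part of control reads in the fall of H3K9me3 was not tested. Other strong regions lay in Pigl, an enzyme of GPI-anchor synthesis, in the lncRNA gene Platr29, in Zfp936 and in the lncRNA gene Gm40034. At Pigl, H3K9me3 had 140 and 83.5 normalized reads in C3, against 602 and 511 in OSKM, and fell by 2.35 ± 0.21 on the log2 scale (SE; limma, adjusted p = 4.94e-05). In C2 it had 219 and 217, against 539 and 467 in OSKM, and fell by 1.198 ± 0.17 (limma, adjusted p = 0.00192). At Zfp936 (chr7:43161711-43163725) neither mark was called: H3K9me3 had 325 and 413 in C3, against 348 and 389 in OSKM, and H3K27ac 2954 and 1783 in C3, against 2532 and 2548.

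Per kb, no difference in level between both-mark regions and other regions of a mark was detected beyond the spread of the 6 libraries. The median H3K9me3 was 40.4 and 49.8 normalized reads per kb in C2, 40.03 and 27.7 in C3 and 46.6 and 45.7 in OSKM. As log2 ratios to the other H3K9me3 regions of the same library these were 0.08 and 0.49 in C2, -0.22 and -0.52 in C3, and 0.31 and 0.25 in OSKM. The mean ratio was 0.06 ± 0.37 (SD, n = 6 libraries; exact sign-flip permutation test, two-sided, p = 0.656). Only the C3 libraries lay below 0. For H3K27ac the ratios were -0.60 and -0.91 in C2, 0.33 and -0.19 in C3, and -0.29 and -0.21 in OSKM, with a mean of -0.31 ± 0.42 (n = 6; exact sign-flip permutation test, two-sided, p = 0.156). The smallest p that 6 libraries allow is 0.03125. The test takes the 6 libraries as independent though 2 come from each line, so its p does not measure the spread between lines. With means in place of medians the H3K9me3 ratio was 1.88 (p = 0.03125 by the same exact permutation test).

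**Figure D2:**
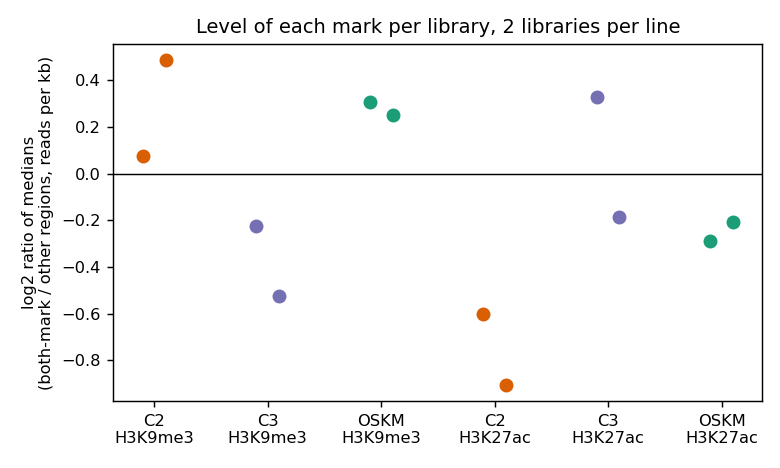
The log2 ratio of medians (both-mark regions over the other regions of the mark, in normalized reads per kb) in each of the 12 histone libraries, as 2 points per line. H3K9me3 lies below 0 in both C3 libraries and above 0 in the other 4, and H3K27ac lies lowest in C2.

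The comparison of C3 with OSKM sets cells made with artificial factors against cells made with Oct4. At both-mark regions H3K9me3 was more often lower in C3: 659 fell and 61 rose of 4308 tested (15.3% and 1.42%; limma, adjusted p under 0.05). Over all H3K9me3 regions of these chromosomes 5.35% fell and 1.58% rose (6.93% in all). The median log2 fold change was -0.44 at both-mark regions and -0.03 over all regions. The difference in share was present at every level of the mark. In the top quartile of mean level, H3K9me3 fell at 293 of 625 both-mark regions (46.9%) and at 1552 of 12421 other regions (12.5%). In the lowest quartile it fell at 4.46% and 0.467%. Of the 350 regions with both marks in all 3 lines, 347 were tested and H3K9me3 fell at 134 (38.6%). Without C3 replicate 1, a total of 1334 regions were called, 1233 of them lower. Leaving out any other single library gave 490 to 811 lower, and quantile normalization 257.

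H3K9me3 fell to the value of 1 read in C3 at several both-mark regions. In Lrrc8c, a subunit of volume-regulated anion channels (chr5:105544169-105545146), it had 0.862 and 1.52 normalized reads in C3, against 124 and 122 in OSKM, at least 34.4-fold lower (limma, adjusted p = 0.00018). In Ppp2r2d, a regulatory subunit of protein phosphatase 2A (chr7:138854815-138855936), it had 0.862 and 1.52 in C3, against 241 and 215 in OSKM, at least 63.7-fold lower (limma, adjusted p = 3.48e-05). Near Fitm2, a lipid droplet protein (chr2:163466851-163468559), it was at least 55.1-fold lower (limma, adjusted p = 5.6e-05). In each of these 3 regions both C3 libraries were at the floor and both OSKM libraries far above it. The bounds cover counting error only, and a value at the floor does not show that the mark was absent. Of 365 both-mark regions at the floor of H3K9me3 in all 4 libraries of C3 and OSKM, 364 had a called peak in at least 1. In Irak3, a brake on Toll-like receptor signalling (chr10:120173177-120175066), H3K9me3 had 6.89 and 10.6 in C3, against 372 and 274 in OSKM, and fell by 5.06 ± 0.35 on the log2 scale (limma, adjusted p = 8.02e-06). H3K27ac at Irak3 had 3606 and 2037 in C3, against 2718 and 2680 in OSKM, and was not called. Rises were fewer. In Gm11963 (chr11:5501178-5502070) H3K9me3 had 59.5 and 72.9 in C3, against 0.951 and 0.804 in OSKM, at least 25.1-fold higher (limma, adjusted p = 0.000689). In 4930524B15Rik (chr11:31977678-31978503) it had 99.1 and 91.1 in C3, against 0.951 and 4.82 in OSKM (limma, adjusted p = 0.00103).

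H3K27ac was more often higher than lower in C3, as it was over all H3K27ac regions, and the share of rises was close to theirs. Of 3676 tested H3K27ac regions with a both-mark region, 592 rose (16.1%) and 161 fell (4.38%), against 14.2% and 7.01% of all tested H3K27ac regions (21.2% in all). The median log2 fold change was 0.44, against 0.08 over all. Rises exceeded those of other regions in the upper 2 quartiles of level: 25.9% against 17.1% in the third quartile and 19.3% against 12.2% in the top quartile. In the lower 2 quartiles they were fewer, at 5.88% against 11.7% and 13.6% against 15.2%. Without C3 replicate 1 the split was 355 higher and 368 lower, so the excess of rises rests on that library. In Rnf180, a ubiquitin ligase gene (chr13:105239905-105240951), H3K27ac had 224 and 131 in C3, against 1.1 and 0.993 in OSKM, at least 56.5-fold higher (limma, adjusted p = 0.00334). In Maml2, a Notch co-activator (chr9:13664804-13665558), it had 310 and 209 in C3, against 1.1 and 5.96 in OSKM (limma, adjusted p = 0.00357). In Fam163a (chr1:156076926-156079206) it went the other way, with 0.837 and 1.09 in C3, against 180 and 124 in OSKM, at least 52.6-fold lower (limma, adjusted p = 0.00338), while H3K9me3 there was 327 and 255 in C3, against 405 and 336. Endoderm markers had more H3K27ac in both C3 libraries than in OSKM (above), and their part in these rises was not tested.

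**Figure D3:**
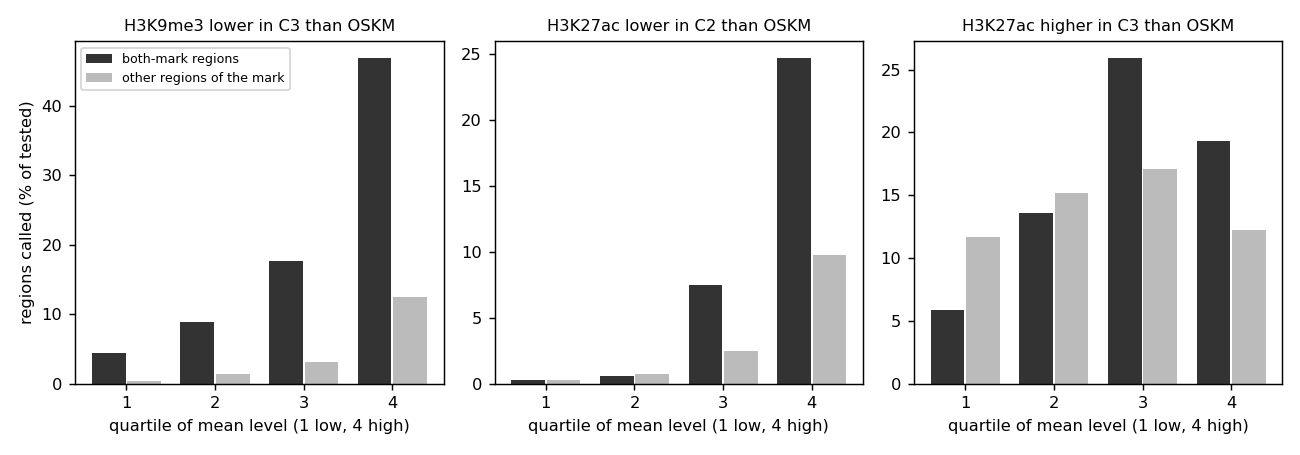
The share of tested regions called (%), by quartile of the mark's mean level over the 4 libraries of the pair (1 lowest, 4 highest), for both-mark regions (dark) and the other regions of the mark (light). Both-mark regions exceed other regions in all 4 quartiles for H3K9me3 lower in C3, and in the upper 2 quartiles and not the lower 2 for both H3K27ac panels.

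C2 against OSKM gave fewer calls. H3K9me3 rose at 53 and fell at 97 of 4325 tested both-mark regions (1.23% and 2.24%), against 0.419% and 1.27% of all regions (1.69% in all). This count is loose: without C2 replicate 1 there were 343 higher and 339 lower, without C2 replicate 2 134 and 619, without OSKM replicate 1 45 and 40, and without OSKM replicate 2 43 and 51. By edgeR on recovered reads the split was 85 higher and 69 lower, and with quantile normalization 0 and 4. H3K27ac rose at 128 and fell at 354 of 3668 tested regions (3.49% and 9.65%), against 5.48% and 3.54% of all (9.02% in all). In the top quartile of level it fell at 296 of 1198 (24.7%), against 9.79% of other regions. Without C2 replicate 1 it rose at 242 and fell at 919, without C2 replicate 2 at 252 and 493, and without OSKM replicate 1 at 81 and 207. With quantile normalization the split was 71 higher and 95 lower, and the authors' deposited table had 247 higher and 327 lower. The summed H3K27ac of the pluripotency markers was also lower in both C2 libraries than in OSKM (above), and its part was not tested.

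In C2, too, H3K9me3 was at the value of 1 read at Ppp2r2d (1.15 and 1.39, against 216 and 196 in OSKM), at least 54.0-fold lower (limma, adjusted p = 5.38e-05). Near Fitm2 it was at least 46.7-fold lower (limma, adjusted p = 9.28e-05). In Frs3, an adaptor of FGF receptors (chr17:47703431-47703804), it had 80.2 and 48.8 in C2, against 0.852 and 0.734 in OSKM, at least 27.1-fold higher (limma, adjusted p = 0.00178). All 4 libraries of C3 and OSKM stood at the floor there. Zfp462, a zinc-finger gene that helps to keep heterochromatin in embryonic stem cells, held 3 both-mark regions in which the marks moved in opposite directions. At chr4:55003013-55004685 H3K9me3 had 167 and 215 in C2, against 58.8 and 70.5 in OSKM, and rose by 1.54 ± 0.24 (limma, adjusted p = 0.00394). H3K27ac there had 920 and 595 in C2, against 2242 and 2253 in OSKM, and fell by 1.60 ± 0.26 (limma, adjusted p = 0.0171). The groups did not overlap in either mark, but the H3K27ac call was lost without OSKM replicate 1 (adjusted p = 0.0716) or 2 (0.0591). At its other 2 regions H3K9me3 rose by 2.35 and 2.56 on the log2 scale, the first of these not called without OSKM replicate 1 (adjusted p = 0.119). In C3 neither mark was called at the 3 regions.

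Direct comparison of C2 with C3 gave counts that depended strongly on the fit. H3K9me3 was higher in C2 at 7 and lower at 3 of 4256 tested both-mark regions (0.164% and 0.0705%). Over all tested H3K9me3 regions the shares were 0.0309% and 0.00772% (0.0386% in all). Of the both-mark regions 763 had an unadjusted p under 0.05. edgeR on recovered reads called 35. The 7 included regions in Lrrc8c, Irak3, Pfkp and Frs3, and the 3 included regions in Gm11963 and 4930524B15Rik. In Lrrc8c H3K9me3 had 36.9 and 107 in C2, against 0.687 and 1.18 in C3, at least 25.6-fold higher (limma, adjusted p = 0.0388). The calls at Irak3 and at Pfkp, which encodes platelet phosphofructokinase, were lost without C2 replicate 2 (adjusted p = 0.0693 and 0.0739). H3K27ac was higher at 0 and lower at 3 of 3667 tested H3K27ac regions with a both-mark region (0% and 0.0818%). Over all tested H3K27ac regions the share was 0.00722% in each direction (0.0144% in all). Of the 3667, 920 had an unadjusted p under 0.05, and edgeR called 27. The 3 were in Pde7a, a phosphodiesterase gene, in the formin gene Diaph3 and in LOC115488765. In Diaph3 (chr14:86810465-86811196) H3K27ac had 43.9 and 24.4 in C2, against 337 and 199 in C3, a log2 difference of -2.95 ± 0.40 (limma, adjusted p = 0.0424). Both of these counts moved more than 1.5-fold without any 1 library, to 46 to 550 for H3K9me3 and 23 to 598 for H3K27ac: for H3K9me3 550 and 46 without C2 replicates 1 and 2, and 228 and 53 without C3 replicates 1 and 2, and for H3K27ac 598 and 51, and 23 and 275. They are therefore not firm.

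Most both-mark regions called in one mark were not called in the other. Between C3 and OSKM 163 of 3740 regions tested in both marks were called in both. H3K9me3 fell and H3K27ac rose at 95, the reverse held at 8, both fell at 40 and both rose at 20. Of the 643 regions where H3K9me3 fell, H3K27ac rose at 14.8%, against 16.9% of the 3049 where H3K9me3 was not called. H3K27ac rose at 20 of the 48 where H3K9me3 rose (41.7%). Between C2 and OSKM 44 of 3755 were called in both: 9 with H3K9me3 higher and H3K27ac lower, 4 the reverse, 22 lower in both and 9 higher in both. Where H3K9me3 fell in C2, H3K27ac fell at 22 of 94 (23.4%), against 11.2% where H3K9me3 was not called. Over regions the log2 fold changes of the 2 marks had a Pearson r of 0.07 for C3 over OSKM (n = 3740) and 0.09 for C2 over OSKM (n = 3755). These are descriptions, since regions share libraries, depth and OSKM samples, and 637 share an H3K27ac region with another. The number with opposite calls moved between 58 and 191 for C3, and between 8 and 54 for C2, as single libraries were left out. The 13 of C2 became 54 and 30 without H3K9me3 replicate 1 or 2 of C2, and 8 without either H3K27ac library of OSKM.

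**Figure D4:**
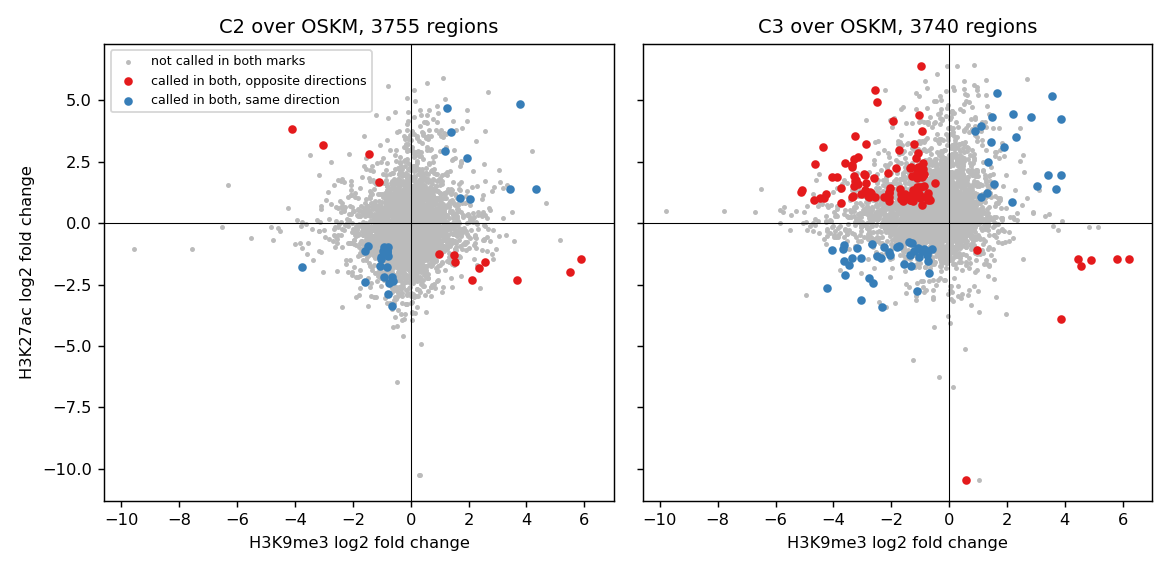
H3K9me3 (horizontal) against H3K27ac (vertical) log2 fold change of both-mark regions in C2 over OSKM (left, 3755 regions) and C3 over OSKM (right, 3740 regions), with regions called in both marks in colour. In C3 most of the 163 coloured points lie upper left, where H3K9me3 is lower and H3K27ac higher.

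The 95 regions at which H3K9me3 fell and H3K27ac rose in C3 lay in 91 H3K27ac regions. A gene held 49 of them, 6 covered a start site and 31 had no gene within 5000 bp. In C3 23 of them had peaks of both marks in both libraries, and in OSKM 60. Their median H3K9me3 was 37.1 and 30.4 normalized reads in C3, against 113 and 111 in OSKM. Their median H3K27ac was 266 and 190 in C3, against 64.02 and 96.3 in OSKM. The median log2 fold changes in C3 were -1.85 and 1.48, and in C2 -0.61 and 0.64, where 11 had lower H3K9me3, 17 had higher H3K27ac and 4 had both. C2 and C3 are set against the same OSKM libraries. Without C3 replicate 1 of H3K27ac the 95 became 46, without OSKM replicate 1 of H3K27ac 52, without C3 replicate 2 of H3K27ac 161 and without C3 replicate 1 of H3K9me3 183.

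Among them was a region at the start of the lncRNA gene Gm52510, close to the pluripotency-related gene Rif1 (chr2:52131245-52132139). H3K9me3 there had 13.8 and 25.8 normalized reads in C3, against 113 and 109 in OSKM, and fell by 2.49 ± 0.39 (limma, adjusted p = 0.00202). H3K27ac had 103 and 90.5 in C3, against 1.1 and 3.97 in OSKM, and rose by 4.91 ± 0.70 (limma, adjusted p = 0.00536). The same held in C2, where H3K9me3 fell by 4.09 ± 0.73 and H3K27ac rose by 3.81 ± 0.83 (limma, adjusted p = 0.0087 and 0.0305). Snai1, a mesenchymal transcription factor, had a region 956 bp from its start site (chr2:167539151-167539632). H3K9me3 had 21.5 and 6.07 in C3, against 89.4 and 91.6 in OSKM, and fell by 2.86 ± 0.55 (limma, adjusted p = 0.00699). H3K27ac had 653 and 489 in C3, against 171 and 188 in OSKM, and rose by 1.65 ± 0.23 (limma, adjusted p = 0.00523). Adra1a, an adrenergic receptor gene, held H3K9me3 changes in both directions within 1 H3K27ac region, which rose in C3 by 3.08 ± 0.44 (limma, adjusted p = 0.00556). At chr14:66759227-66760845 H3K9me3 had 125 and 184 in C3, against 32.3 and 49.0 in OSKM, and rose by 1.90 ± 0.30 (limma, adjusted p = 0.00187). At chr14:66757234-66757591 it had 0.862 and 1.52 in C3, against 38.03 and 49.0, at least 12.2-fold lower (limma, adjusted p = 0.00231).

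Imprinted genes, expressed from 1 parental copy, held 22 both-mark regions at 19 of 57 listed genes (0.471% of both-mark regions), against 0.154% of other H3K9me3 regions. At 14 of the 22 both marks had peaks in both libraries of at least 1 line, and at 4 in all 3 lines. In C3 H3K9me3 rose at 3 and fell at 4 of them. H3K27ac fell at 5 in C3 and at 5 in C2, 3 of these being the regions of Zrsr1 in 1 H3K27ac region. Over all tested both-mark regions 1.42% rose and 15.3% fell in H3K9me3 in C3, and of the H3K27ac regions around them 4.38% fell in C3 and 9.65% in C2, so the number with lower H3K9me3 was near the share over both-mark regions. At the start of Zrsr1, a splicing factor gene expressed from the paternal copy (chr11:22970995-22972195), H3K9me3 had 108 and 100 normalized reads in C2, against 0.852 and 0.734 in OSKM, at least 43.7-fold higher (limma, adjusted p = 0.000492). In C3 it had 109 and 178, against 0.951 and 0.804 in OSKM, at least 54.5-fold higher (limma, adjusted p = 0.000132). H3K9me3 there was at the value of 1 read in both OSKM libraries alone. H3K27ac had 339 and 223 in C2, against 728 and 773 in OSKM, and fell by 1.44 ± 0.24 (limma, adjusted p = 0.0179). In C3 it had 341 and 256, against 791 and 841, and fell by 1.46 ± 0.23 (limma, adjusted p = 0.00667).

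Impact, a translational regulator gene also expressed from the paternal copy, had the same pattern (chr18:12972724-12974634). H3K9me3 had 214 and 44.6 in C2, against 1.7 and 0.734 in OSKM, and 203 and 77.5 in C3, against 1.9 and 0.804 (limma, adjusted p = 0.00223 and 0.000325). H3K27ac had 375 and 196 in C2, against 1194 and 967 in OSKM, and 657 and 281 in C3, against 1297 and 1051 (limma, adjusted p = 0.0157 and 0.0329). The H3K27ac call in C3 was lost without OSKM replicate 1 (adjusted p = 0.0547). At Kcnq1ot1, the paternally expressed antisense RNA that silences its neighbours, the region over the start site (chr7:143294394-143297003) went the opposite way in C3. H3K9me3 had 50.0 and 1.52 in C3, against 279 and 220 in OSKM, and fell by 4.46 ± 0.92 (limma, adjusted p = 0.0103). H3K27ac had 659 and 497 in C3, against 240 and 335 in OSKM, and rose by 1.01 ± 0.26 (limma, adjusted p = 0.0287), a call lost without C3 replicate 1 (adjusted p = 0.0804) or OSKM replicate 1 (0.282). In C2 H3K9me3 had 257 and 83.6, against 250 and 201 in OSKM, and was not called.

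Mcts2, a paternally expressed gene inside H13 (chr2:152687460-152688083), had H3K9me3 of 0.862 and 1.52 in C3, against 63.7 and 65.9 in OSKM, at least 18.2-fold lower (limma, adjusted p = 0.000881). At Gm32061, next to the imprinted Mkrn3 (chr7:62420588-62420974), it had 4.31 and 1.52 in C3, against 58.0 and 47.4 in OSKM, and fell by 3.87 ± 0.69 (limma, adjusted p = 0.00435). Gm34081, beside the maternally expressed lncRNA gene Meg3, differed in H3K27ac. At chr12:109537856-109539175 H3K27ac had 0.841 and 1.28 in C2, against 184 and 177 in OSKM, and 0.837 and 1.09 in C3, against 199.8 and 193 in OSKM. It was at least 56.7-fold lower in C2 and at least 67.9-fold lower in C3 (limma, adjusted p = 0.0101 and 0.00324). At a second region of the same gene (chr12:109524498-109524821) it was at least 793-fold and 949-fold lower, with 2630 and 2420 in OSKM (limma, adjusted p = 4.25e-05 and 7.69e-05). H3K9me3 was not called at these 2 regions, with 108 and 71.4 in C3, against 86.5 and 74.8 in OSKM at the first. Another both-mark region, over the start site of Gm34081 and named after its values were seen, lay in the same H3K27ac region as the second, and there H3K9me3 rose in C3 by 0.59 on the log2 scale (limma, adjusted p = 0.00959). Both lines made with artificial factors were thus at the floor of H3K27ac and OSKM was not. Mest, Peg3, Snrpn, Gnas and Peg10, whose both-mark regions are classical imprinted loci, were called in neither mark. At the start of Mest (chr6:30736202-30739964) H3K9me3 had 429 and 313 in C3, against 550 and 470 in OSKM, and both marks had peaks in both libraries of all 3 lines. At the start of Peg3 (chr7:6729468-6731476) H3K9me3 had 249.9 and 169 in C3, against 194 and 167 in OSKM. Some regions show the limit of the table: in Sfmbt2 both marks had called peaks in both libraries of all 3 lines, but the region held 0.862 and 1.52 normalized reads of H3K9me3 in C3, and 0.951 and 1.61 in OSKM.

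**Figure D5:**
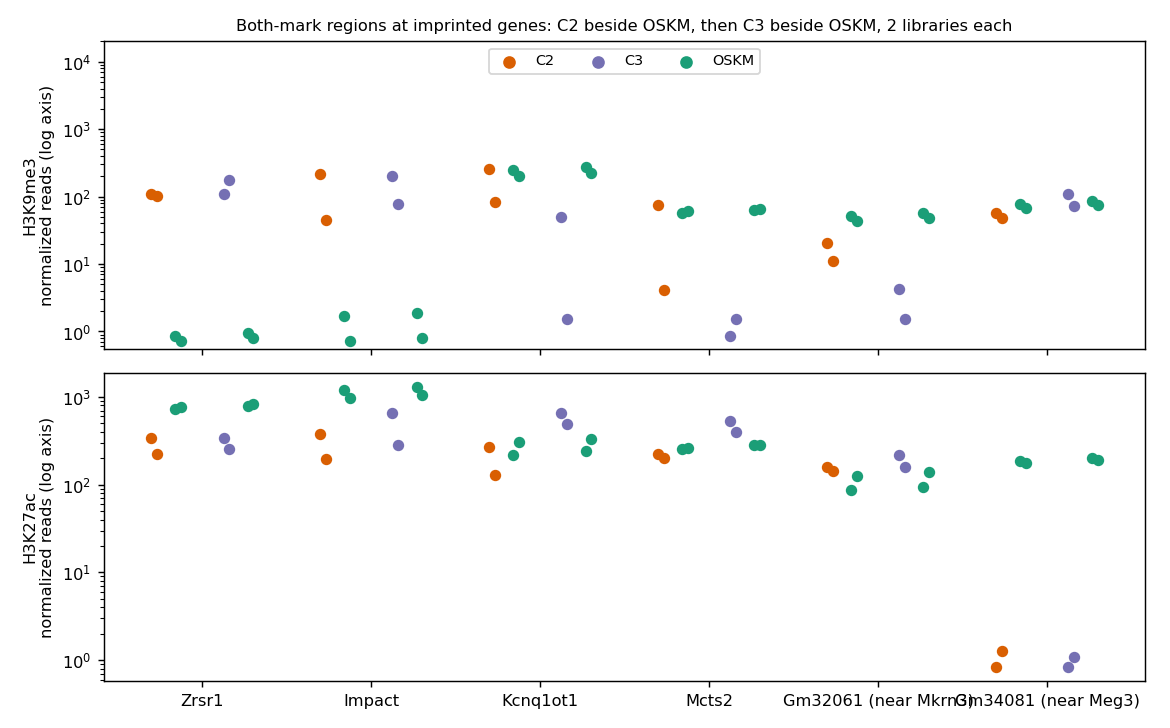
H3K9me3 (top) and H3K27ac (bottom) in normalized reads on a log axis at 6 both-mark regions of imprinted genes, with C2 beside OSKM and then C3 beside OSKM, as 2 points per line. Zrsr1 and Impact have H3K9me3 of 44.6 to 214 in C2 and C3 and of 0.734 to 1.9 in OSKM, and the region near Meg3 has H3K27ac of 0.837 to 1.28 in C2 and C3 and of 177 to 199.8 in OSKM.

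Of 34 pluripotency genes, 4 had a both-mark region, 8 in all, and H3K9me3 fell at 4 of these in C2 and at 6 in C3. The 4 in C2 were the 3 regions of Pou5f1 and the region of Gm52510 near Rif1 (above). Among the 6 in C3 was a region at Spp1, with a mean of only 11.5 normalized reads in OSKM. Over all tested both-mark regions H3K9me3 fell at 2.24% in C2 and 15.3% in C3, and in the top quartile of level at 7.14% and 46.9%. Pou5f1, which encodes Oct4, had 3, one of which was among the strongest both-mark regions per kb. At its start (chr17:35505998-35506575) H3K9me3 had 347 and 223 in C3, against 584 and 501 in OSKM, and fell by 0.95 ± 0.18 (limma, adjusted p = 0.00562). In C2 it had 331 and 286, against 523 and 457 in OSKM, and fell by 0.67 ± 0.17 (limma, adjusted p = 0.0485), a call lost without OSKM replicate 1 or 2. The C2 calls at the other regions of Pou5f1 (from chr17:35508986 and chr17:35509900) were also lost without OSKM replicate 1. Their log2 fold changes were then -1.41 and -1.28, so no C2 call at Pou5f1 held in every such fit. OSKM cells were given Oct4, and reads of that added copy cannot be told apart from reads of Pou5f1 itself. Esrrb, an orphan nuclear receptor of the naive state, was not among the factors given. At chr12:86482523-86484996 H3K9me3 had 171 and 166 in C3, against 381 and 380.2 in OSKM, and fell by 1.18 ± 0.14 (limma, adjusted p = 0.000295). At chr12:86481613-86482282 it had 18.1 and 6.07 in C3, against 105 and 90.03, and fell by 3.08 ± 0.53 (limma, adjusted p = 0.00339). In C2 neither was called. H3K27ac around them was 4939 and 3295 in C3, against 5736 and 5471 in OSKM, also not called. At another both-mark region of Esrrb (from chr12:86456474) H3K27ac was called lower in C2. That call was lost without OSKM replicate 1, with a log2 fold change of -1.10. Over the 8 regions H3K27ac rose at 1 and fell at 1 in C2, and rose at 1 in C3. Of all tested H3K27ac regions with a both-mark region, 3.49% rose and 9.65% fell in C2, and 16.1% rose in C3. Of 27 genes that write or direct H3K9me3, Pphln1 (a HUSH complex subunit), Morc3 and Zfp809 (a repressor of retroviruses) each had 1 both-mark region, and H3K9me3 fell at all 3 in C3. H3K27ac at Pphln1 was at the floor in every library of its tables. At Zfp809 H3K9me3 had 82.7 and 83.5 in C3, against 165 and 155 in OSKM, and fell by 0.94 ± 0.20 (limma, adjusted p = 0.0123), a call lost without OSKM replicate 1 (adjusted p = 0.0667).

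Clustered gene families that heterochromatin covers held few of the both-mark regions. Zinc-finger genes had 46 (0.984%, against 0.930% of other H3K9me3 regions), olfactory receptor genes 26 (0.556%, against 0.853%) and vomeronasal receptor genes 27 (0.578%, against 1.07%). Clustered protocadherins had 3 (0.0642%, against 0.0361%) and histone clusters 1 (0.0214%, against 0.00949%). These differences were not tested. At zinc-finger genes H3K9me3 rose at 4 in C2 and fell at 8 in C3, and H3K27ac fell at 5 in C2, and rose at 5 and fell at 3 in C3. The 3 regions of Zfp462 (above) are among both the 4 and the 5 of C2, and 2 of them lie in 1 H3K27ac region. Over all tested both-mark regions the shares were 1.23% for H3K9me3 higher in C2 and 15.3% for H3K9me3 lower in C3, and over the H3K27ac regions around them 9.65% lower in C2, and 16.1% higher and 4.38% lower in C3. Near Zfp572 (chr15:59302153-59303992) H3K9me3 had 145 and 102 in C3, against 398 and 325 in OSKM, and fell by 1.56 ± 0.19 (limma, adjusted p = 0.000351). At vomeronasal receptor genes H3K9me3 fell at 4 in C3, and H3K27ac fell at 9 in C2 and at 4 in C3, to be read against the same shares. These shares count each H3K27ac region once, while the counts do not. The 4 in C3 were a pair at Vmn2r85 and a pair at Vmn1r-ps123, each pair in 1 H3K27ac region. The 9 in C2 include a pair at Vmn2r83 in 1 H3K27ac region. In Vmn2r85 (chr10:130417112-130419877) H3K27ac had 106 and 44.9 in C2, against 339 and 327 in OSKM, and fell by 2.25 ± 0.37 (limma, adjusted p = 0.0176). These receptor genes have near-identical copies, among which short reads may be split. In the protocadherin gamma cluster (chr18:37772052-37772905) H3K9me3 was at the floor in C3, with 0.862 and 1.52, against 125 and 119.8 in OSKM, at least 34.2-fold lower (limma, adjusted p = 0.000182). Near the histone gene H4c9 H3K9me3 was at least 16.6-fold lower in C2 (limma, adjusted p = 0.00281). Germline genes had 5 both-mark regions with no call, endoderm genes 1 (Cubn, where H3K9me3 rose by 1.23 ± 0.21 in C3, limma, adjusted p = 0.00345), fibroblast genes 2, and 2-cell and Hox genes 0.

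HA peaks of the artificial factors in C2 cells at day 20 were rare on both-mark regions. Both C2 libraries had a peak on 125 (2.67%), against 4.30% of other H3K9me3 regions. Both libraries of the empty vector had one on 51 (1.09%), against 2.52%. With a peak in both C2 libraries and in no library of the empty vector there were 44 (0.942%), against 1.05% of other H3K9me3 regions, so the share on both-mark regions was not above that on other regions.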

How the data were processed

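Chromatin immunoprecipitation libraries of H3K9me3 and H3K27ac (2 per mark in C2, C3 and OSKM cells) and of HA (2 each in C2 and empty-vector cells) were analysed. The submitters' processing notes name DiffBind 1.16.2, Bowtie2 2.2.5, CASAVA 1.8.2 and SAMtools 1.3. Per the file headers, the authors called peaks for each library with MACS 2.1.0.20150731 (2.1.1.20160309 for HA) on mm10; a peak carries a fold enrichment (a ratio), a -log10 q and a pileup signal, all the authors' own. The authors' deposited table of each mark and pair of lines holds a normalized read signal per region, with log2 fold changes and p-values and false discovery rates as the authors' p-value columns. These signals equal whole reads divided by 1 factor per library (100% within 1e-06), and no region goes below 1 read, called the floor. Which control reads were subtracted is not given in the sources used here.

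Each table was fitted whole with limma 3.58.1 (R 4.3.3) on log2(normalized reads + 1), with a mean-dependent variance. Regions at the floor in all 4 libraries were left out. Calls needed a Benjamini-Hochberg adjusted p under 0.05 over all regions. Fold changes are on this log2 scale, which understates those of low regions. For a group at the floor, a lower bound was computed against 3 reads per library. Depth was 28947967 to 46304808 reads kept per histone library, and bounds cover counting error only. At the floor in all 4 libraries were 348 and 365 both-mark regions for H3K9me3 (C2 and C3 against OSKM), although 345 and 364 of them had a called peak in at least 1 library, so these could not be tested. On simulated data with 200 changed regions, 4-fold changes were recovered in 48% to 77% of cases and 2-fold changes in 3% to 34%. The changed regions were drawn from all regions of a mark with a mean of at least 20 normalized reads. Recovery at both-mark regions as such, or at lower levels, was not simulated. Genes and promoters came from RefSeq (GRCm38.p6), and promoters of chromosome 18 were not used here. Python 3.11.15, pandas 2.3.3, NumPy 2.4.6, SciPy 1.17.1 and matplotlib 3.10.9 were used for the rest.

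Regions named are those strongest in both marks, those called in both marks, the most changed in each comparison with a mean of at least 20 normalized reads, and those at listed genes. Alternatives were other filters, a pseudocount of 8, quantile normalization, a replicate block, each library left out, edgeR 4.0.16 on the recovered reads (added after seeing the data) and the authors' own calls. The both-mark regions and the gene lists were chosen with earlier results of these data known.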

Additional observations from a re-analysis of the deposited data

How the results depend on the processing

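The number of both-mark regions depends on the overlap asked for, with 11458 at any overlap, 2442 at 90% and 2096 where each region covers 50% of the other. Counts of regions with both marks fell with stricter peaks, to 379 in C2 at a -log10 q of at least 5. They fell to 43 in C2, 107 in C3 and 627 in OSKM where a peak had to cover 50% of the region. Without 1 replicate the counts were 1145 to 1709 in C2, 1319 to 2647 in C3 and 2651 to 2685 in OSKM.

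H3K9me3 calls between C2 and OSKM (150) became 55 with no region left out, 4 with quantile normalization and 376 in the authors' deposited table, and ran between 85 and 753 without 1 library. Between C3 and OSKM (720) they became 289 with quantile normalization, and 556 to 1334 without 1 library. Between C2 and C3 (10) they became 137 with no region left out, 17 without the lowest 25% of regions, 3 with a pseudocount of 8, 0 with quantile normalization, 35 by edgeR, 170 in the authors' deposited table and 46 to 550 without 1 library. H3K27ac calls between C2 and OSKM (482) became 166 with quantile normalization, and 288 to 1161 without 1 library. Between C3 and OSKM (753) they stayed within 1.5-fold in every alternative, with 528 to 853 without 1 library. Between C2 and C3 (3) they became 365, 10 and 0 with no region left out, without the lowest 25% and with quantile normalization, 27 by edgeR, 91 in the authors' deposited table and 23 to 598 without 1 library.

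Opposite calls in both marks between C2 and OSKM (13) became 1 with quantile normalization, 22 by edgeR and 8 to 54 without 1 library. Between C3 and OSKM (103) they became 59 with quantile normalization and 58 to 191 without 1 library. Level ratios per region, not per kb, were -0.33 for H3K9me3 and 0.40 for H3K27ac (exact permutation p = 0.0625 each). With means they were 1.88 and 0.046 (exact permutation p = 0.03125 and 0.656).

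No label says that a replicate number marks a shared culture or day, and no number was taken to pair libraries. The differences between replicates 1 and 2 correlated over regions at -0.00 to 0.12 for H3K9me3 and -0.06 to 0.35 for H3K27ac, highest in both marks between C2 and C3 (0.12 and 0.35). With a replicate block, H3K9me3 calls were 346 (C2 and OSKM), 1 (C3 and OSKM) and 305 (C2 and C3), and H3K27ac calls 754 and 1141 for the pairs with C2. Of 231 named results 57 kept their call in every alternative and 0 changed sign, while 105 lost it with quantile normalization and 73 with the replicate block. The causes were not tested. With 2 libraries a line, depth and spread limit what can be called.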
